A study of Mus musculus with 24 samples.

Results

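The 10 genes described here belong to the BCL2 family, whose proteins decide whether a mitochondrion releases the signals that start cell death. They were taken by symbol from a table of RNA counts in mouse heart: Mcl1, Bcl2, Bcl2l1, Bcl2l11, Bax, Bak1, Bbc3, Bid, Bad and Bmf. All 10 were among its 21878 genes, and all 10 passed the filter on low counts that left 13501 genes for testing. The hearts came from ovariectomised mice 3 weeks after myocardial infarction (MI). Every mouse had received the adeno-associated virus AAV9, which is often used to carry genes into heart muscle, either empty (AAV9-Empty) or overexpressing miR-21 (AAV9-OE miR-21). Within each vector, part of the mice trained by swimming before the infarction and part were controls. The groups were AAV9-Empty control (6 libraries), AAV9-Empty with swimming (6), AAV9-OE miR-21 control (6) and AAV9-OE miR-21 with swimming (5 analysed), so ovariectomy, an AAV9 vector and MI were common to all of them. Age, strain and the promoter in the vector are not given in the labels, and no group without infarction, ovariectomy or virus was among the samples. Whether any libraries share an animal is not stated in the labels, so each p-value below rests on the spread between these libraries, which may be technical.

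BCL2 family proteins share short BH domains and act on each other by binding. Guards such as MCL1, BCL2 and BCL-XL (the product of Bcl2l1) hold the effectors BAX and BAK in check. BH3-only proteins such as BIM (Bcl2l11), PUMA (Bbc3), BID, BAD and BMF are switched on by stress and either occupy the guards or act on the effectors, which then form pores in the outer mitochondrial membrane and let cytochrome c out. Heart muscle cells hardly divide, so their loss after an infarct is lasting, and MCL1 is known to be needed for the upkeep of heart muscle mitochondria. Much of this control is at the level of protein (cleavage, phosphorylation, turnover), which RNA counts do not measure.

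The vector carries a miRNA, so matches to its seed are shown first, for the members that have one. The mature miR-21a-5p, from RefSeq (GRCm38.p6 table), has its seed, bases 2 to 8, in capitals. Below it stand 23-base windows from the longest annotated 3′ untranslated region (3′ UTR) of 4 members, from GENCODE M21 (GRCm38), with the matching letters in capitals. The match searched was ATAAGCT, which pairs with the whole seed, or TAAGCTA, which pairs with its first 6 bases and ends in A, on the sense strand of the transcript.
mmu-miR-21a-5p: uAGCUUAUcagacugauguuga
Mcl1: actgaaggtattTAAGCTAgggt
Bcl2: aaattattttttTAAGCTAccaa
Bcl2l11: tgtatattacctATAAGCTtcct
Bad: tccccaacttctTAAGCTActtt
Each of these 4 transcripts held 1 match, and Bcl2l1, Bax, Bak1, Bbc3, Bid and Bmf held none. A match was present in 1629 of the 13014 tested genes with a 3′ UTR (12.5%). The number of matches depends on length: the UTRs of Mcl1, Bcl2, Bcl2l11 and Bad have 2353, 5086, 4218 and 1026 bases, against a median of 1200 over the tested genes. A match describes letters only, and the levels of these 4 genes under the miR-21 vector are given with each gene.

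Libraries held 12744241 to 14657630 counts. The labelled tissue was checked on 8 cardiomyocyte markers (among them Myh6, Tnnt2 and Actc1), which were detected and summed to 54093 to 112914 CPM, counts scaled to library size. On the first principal component, 43.9% of the variance, 3 libraries stood apart: AAV9-Empty control replicates 2 and 5 and AAV9-OE miR-21 swimming replicate 2. In these 3 the 8 macrophage markers summed to 1466 to 2339 CPM, against 332 to 974 in the other 20, and the 5 neutrophil markers to 189 to 958 against 2.95 to 61.6. Their cardiomyocyte markers summed to 54093 to 75864 CPM, against 81601 to 112914. Adipocyte markers summed to 251 to 676 CPM and mesothelial markers to 5.06 to 188 over all libraries. No marker of these lists was at 0 in every library. In bulk RNA, fewer cells of a type and less RNA per cell cannot be told apart. The numbers in the sample titles form a lower series in both control groups, a higher series in the AAV9-Empty swimming group, and both in the AAV9-OE miR-21 swimming group (replicates 1 and 2 lower, 3 to 5 higher). The labels do not say what this number stands for.

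Levels of different genes were compared in the authors' FPKM, which is per transcript length. Mcl1 was by far the most abundant member, at 75.4 ± 8.45 FPKM (mean ± SD, n = 23 libraries), and was above Bak1 in 23 of 23 libraries with ranges that did not overlap. Then came the effector Bak1 (20.4 ± 4.24), the BH3-only gene Bad (12.4 ± 1.56), the effector Bax (10.9 ± 2.18) and the guard Bcl2l1 (8.30 ± 2.02). The lower tier held Bcl2 (2.0 ± 0.47), Bmf (1.82 ± 0.49), Bcl2l11 (1.66 ± 0.46), Bbc3 (1.33 ± 0.40) and Bid (1.19 ± 0.77). Apart from Mcl1 over Bak1 and Bcl2l1 over Bcl2, each gene's range over the 23 libraries overlapped that of the next in the order, although Bak1 exceeded Bad within every library. Mcl1 made up 52.7% ± 2.50 of the summed FPKM of the 10 members in AAV9-Empty controls, 56.2% ± 0.80 with AAV9-Empty and swimming, 55.4% ± 2.35 in AAV9-OE miR-21 controls and 59.4% ± 3.27 with AAV9-OE miR-21 and swimming (mean ± SD, n = 6, 6, 6 and 5). Among guard transcripts per length Mcl1 was the most abundant in each group, followed by Bcl2l1 and then Bcl2.

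**Figure D1:**
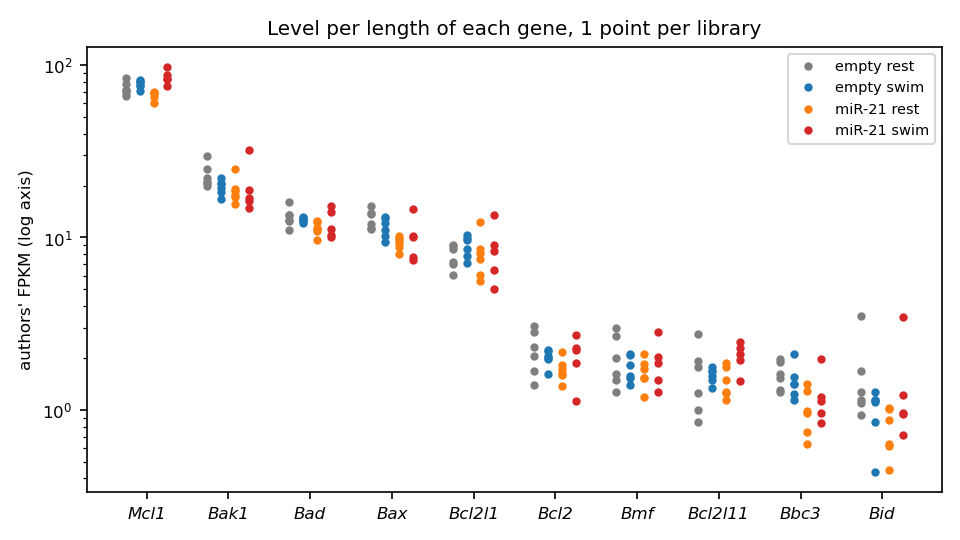
Level per transcript length of the 10 genes in 23 libraries (authors' FPKM, log axis), 1 point per library, coloured by group ("rest" marks control mice that did not swim). Mcl1 lies between 60.1 and 97.2 FPKM with no other gene in that range, and the 5 genes from Bcl2 to Bid lie at or below 3.49 FPKM.

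Mcl1, the short-lived guard, was the 1 member that changed in any of the 4 comparisons of groups: it was higher with swimming among mice with the miR-21 vector. In TMM-normalised CPM (scaled to library size by the trimmed mean of M-values), the AAV9-OE miR-21 swimming libraries 1 to 5 held 326, 316, 342, 311 and 303. The AAV9-OE miR-21 controls ran from 246 over a median of 268 to 277, so the lowest swimming library lay above the highest control. Group means were 319.7 ± 15.1 and 265 ± 11.4 CPM (SD). The log2 fold change was 0.27 ± 0.05 (SE), a 1.21-fold rise with an edgeR quasi-likelihood adjusted p of 0.0407 over 13501 genes, in 5 of 5 libraries. Of all tested genes 0.17% were called changed in this comparison and 0.0518% rose, 7 genes, so Mcl1 was 1 of few. Groups that did not overlap were seen for 2.76% of all genes. Mcl1 had rank 11 by p-value among the 13501.

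That call sat close to the threshold, while its size did not vary much. Over 32 alternatives the log2 fold change ran from 0.25 to 0.29, and the adjusted p stayed under 0.05 in 19. It was lost in edgeR without a filter on low counts (adjusted p = 0.0786), with only the 2 groups in the model (adjusted p = 0.163), and when 1 of 11 libraries was left out: AAV9-Empty swimming 2 or 5, any of AAV9-OE miR-21 controls 1 to 6, or AAV9-OE miR-21 swimming 1, 3 or 4. Over the 23 libraries left out in turn it ran from 0.0318 to 0.0903. DESeq2 and limma voom both called it, among 403 and 314 genes called in all. In the authors' deposited table Mcl1 had a log2 value of 0.27, p = 0.0115 and an adjusted p of 0.605. Within the lower number series of the sample titles, to which all AAV9-OE miR-21 controls belong, the swimming libraries held 326 and 316 CPM, and in the higher series 303 to 342, each above every control. The library that stood apart, replicate 2, was neither the highest nor the lowest of its group. Among the marker lists, neutrophil markers had the highest r with Mcl1 over the 20 libraries not apart (Pearson 0.44, Spearman 0.34). They summed to a median of 10.5 CPM in AAV9-OE miR-21 controls (2.95 to 53.7) and 41.0 CPM with swimming (15.2 to 958), overlapping, and their part in the Mcl1 rise was not tested.

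In the other comparisons Mcl1 did not pass the test. With the empty vector, controls ran from 257 over 269.9 to 300.02 CPM and swimming mice from 276 over 289 to 304 CPM, overlapping groups with a log2 fold change of 0.09 ± 0.05 (edgeR adjusted p = 0.289). The miR-21 vector without swimming gave -0.04 ± 0.05 (adjusted p = 0.573) and with swimming 0.14 ± 0.05 (edgeR adjusted p = 0.152), where DESeq2 and voom gave adjusted p = 0.0309 and 0.041. The 2 effects of swimming on Mcl1, under the miR-21 and the empty vector, differed by 0.18 ± 0.07, which did not pass (edgeR interaction adjusted p = 0.17), so a rise particular to the miR-21 vector was not shown. The 3′ UTR of Mcl1 carries the seed match TAAGCTA printed above, and its level was not called lower with the miR-21 vector in either comparison of vectors.

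**Figure D2:**
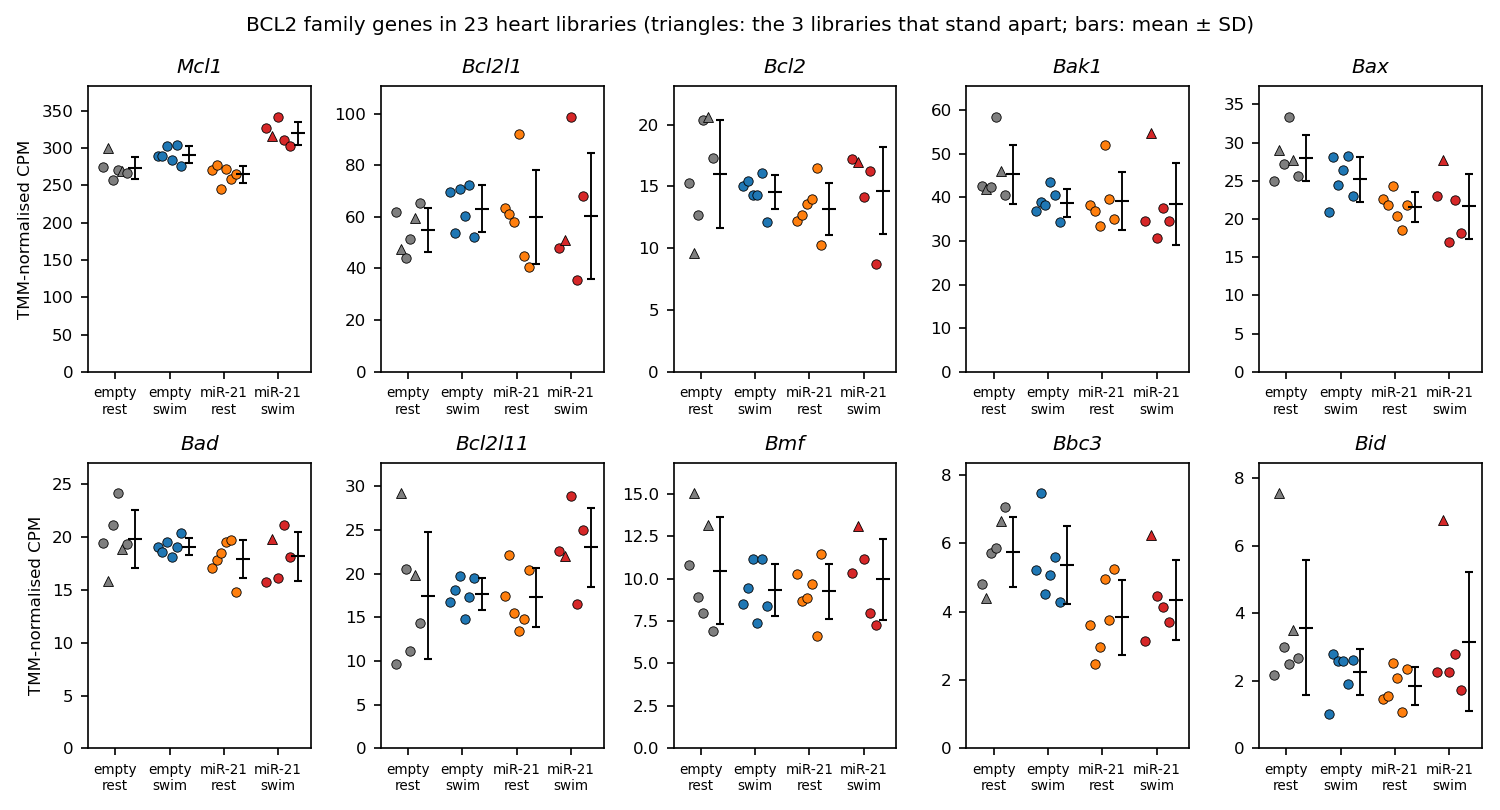
TMM-normalised CPM of each member by group, 1 point per library (triangles: the 3 libraries that stood apart), with mean ± SD as a bar beside each group; every axis starts at 0 and "rest" marks control mice that did not swim. Mcl1 in AAV9-OE miR-21 swimming hearts (303 to 342) lies above the AAV9-OE miR-21 controls (246 to 277), and Bax in AAV9-OE miR-21 controls (18.6 to 24.4) lies below the AAV9-Empty controls (25.0 to 33.4).

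Bcl2l1, which encodes the guard BCL-XL, varied more between libraries than between groups. AAV9-OE miR-21 swimming libraries 1 to 5 held 47.9, 51.1, 98.8, 35.7 and 68.1 CPM, and the AAV9-OE miR-21 controls ran from 40.6 over 59.6 to 91.9. Both groups spanned more than the means of all 4 groups, 54.9 to 63.2 CPM. No comparison passed: log2 fold changes lay between -0.07 and 0.20 with edgeR adjusted p of 0.587 to 0.988. Bcl2, the founding guard of the family, had group means of 13.2 to 16.0 CPM, with single libraries from 8.73 to 20.6. Its log2 fold changes were -0.13 ± 0.17 for swimming under the empty vector and 0.16 ± 0.18 under the miR-21 vector. Between the vectors they were -0.28 ± 0.17 without swimming and 0.01 ± 0.18 with it (edgeR adjusted p = 0.662, 0.636, 0.265 and 0.979, in that order). Bcl2 carries a seed match, and its groups overlapped in each comparison.

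Bax, the effector that moves from the cytosol to mitochondria when activated, had the second smallest p of the 10 members over the 5 tests. It was lower in AAV9-OE miR-21 controls than in AAV9-Empty controls, short of the threshold. AAV9-Empty controls ran from 25.0 over a median of 27.4 to 33.4 CPM and AAV9-OE miR-21 controls from 18.6 over 21.8 to 24.4, so the groups did not overlap. The log2 fold change was -0.37 ± 0.10, 0.77 times, with an edgeR adjusted p of 0.0536, in 6 of 6 libraries. Of all tested genes, 2.25% were called and 5.44% had groups that did not overlap. The 32 alternatives gave -0.42 to -0.32, and 11 of them put Bax past the threshold. These were DESeq2 (adjusted p = 0.0201), limma voom (0.0304), the title number series (0.0266), leaving out the 3 libraries that stood apart (0.0395), the 2 groups alone (0.0156) and 6 of the 23 libraries left out singly. Both groups lie wholly in the lower title series, so the series term could not adjust this difference, and the log2 fold change stayed at -0.37. In the authors' deposited table its log2 value was -0.37 with an adjusted p of 0.0321. With adipocyte and mesothelial marker scores in the model the edgeR adjusted p was 0.197, at -0.35. In that fit 1 gene was called in all, against 304 without the scores. Over the 20 libraries not apart, Bax had Pearson r of 0.00 with the adipocyte and 0.38 with the mesothelial score.

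Markers of several cell types moved with Bax. The 6 fibroblast genes summed to a median of 3202 CPM in AAV9-Empty controls (1647 to 6802), 1793 with swimming (1425 to 2896), 1291 in AAV9-OE miR-21 controls (1092 to 1788) and 1123 with swimming (1052 to 4539). A fibroblast score, the mean of the markers' centred log2 CPM and not their sum, was set against Bax over the 20 libraries not apart. Pearson r was 0.78 (Spearman 0.71), and 0.60 without the 2 libraries farthest in the score. Over the same 20 libraries Pearson r was 0.67 with macrophage, 0.64 with proliferation and -0.64 with cardiomyocyte scores. AAV9-Empty and AAV9-OE miR-21 controls had medians of 769.6 and 507 CPM for macrophage markers, 23.9 and 12.4 for proliferation markers, and 86874 and 100613 for cardiomyocyte markers. These libraries share their groups and their scaling, and the part of any of these lists in the Bax difference was not tested. Without the 3 libraries that stood apart Bax differed by -0.37, as with them. That fit kept AAV9-Empty control 4, with the highest Bax of all libraries (33.4 CPM) and 4408 CPM of fibroblast markers. Without that library alone Bax differed by -0.32 (edgeR adjusted p = 0.123).

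With swimming in both groups, Bax was at 20.9 over 25.4 to 28.2 CPM with the empty vector. The miR-21 vector libraries 1 to 5 held 23.04, 27.7, 16.9, 22.5 and 18.2 CPM, overlapping, with -0.21 ± 0.11 (edgeR adjusted p = 0.284). It passed in 5 of 32 alternatives, among them the fit without the 3 libraries that stood apart (-0.32, adjusted p = 0.043); the highest library, replicate 2, is 1 of these. Swimming itself left Bax at -0.15 ± 0.10 with the empty vector and 0.01 ± 0.11 with the miR-21 vector (edgeR adjusted p = 0.395 and 0.977). Bax has a short 3′ UTR of 224 bases, without a seed match.

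Bak1, the effector that sits in the outer mitochondrial membrane, did not pass in any comparison. Its means were 45.3 ± 6.72 CPM in AAV9-Empty controls, 38.8 ± 3.20 with swimming, 39.3 ± 6.67 in AAV9-OE miR-21 controls and 38.5 ± 9.48 with swimming. A single high library marked 3 of these groups: 58.5 CPM in AAV9-Empty control 4 (next 46.0), 52.1 in AAV9-OE miR-21 control 4 (next 39.7) and 54.8 in AAV9-OE miR-21 swimming 2 (next 37.5). Log2 fold changes ran from -0.22 to -0.01, with edgeR adjusted p of 0.261 to 0.979. In the authors' deposited table Bak1 had p = 0.0327 and an adjusted p of 0.281 for swimming with the empty vector.

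**Figure D3:**
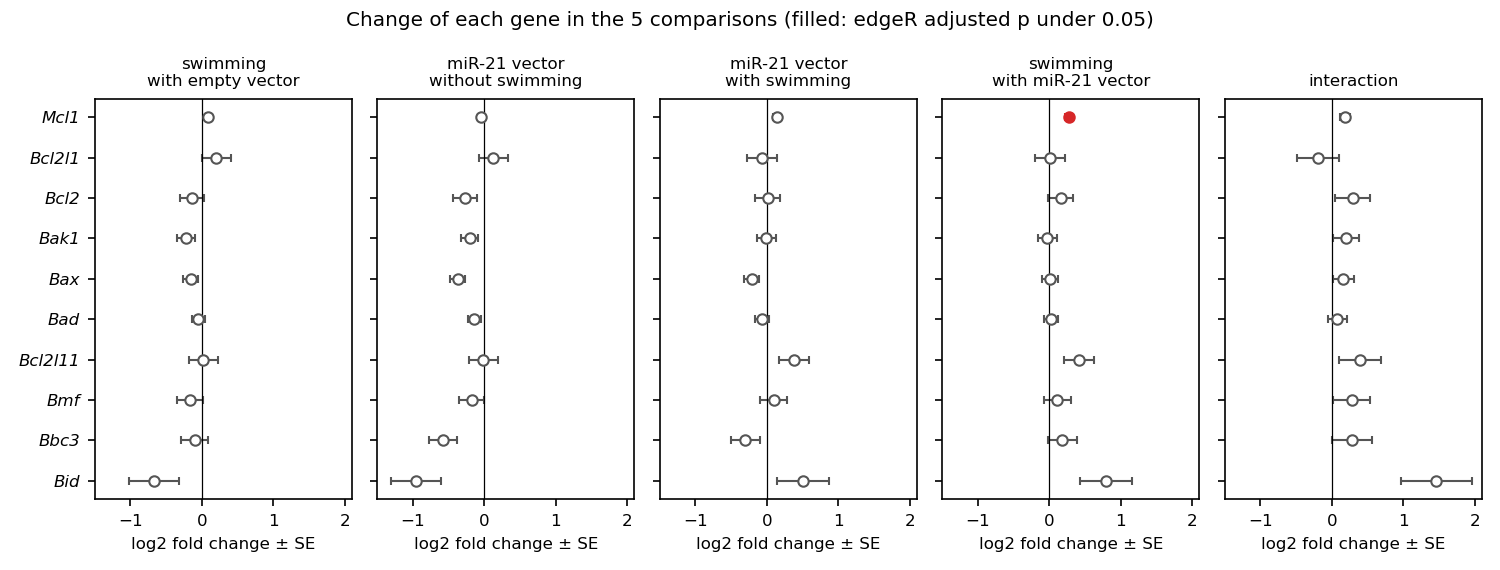
Log2 fold change ± SE of each member in the 4 comparisons of groups and in the interaction (swimming effect with the miR-21 vector minus that with the empty vector), from 1 edgeR model of 23 libraries; a filled point marks an adjusted p under 0.05. The filled point is Mcl1 for swimming with the miR-21 vector (0.27), and Bid has the widest bars.

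Among the BH3-only genes, Bbc3 (PUMA, a p53 target) had values of the same sign as Bax in each comparison of groups, none of them past the edgeR threshold. AAV9-Empty controls ran from 4.41 over 5.79 to 7.07 CPM and AAV9-OE miR-21 controls from 2.46 over 3.69 to 5.26, overlapping but lower in 6 of 6 libraries against the mean of the other group. The log2 fold change was -0.58 ± 0.19 (edgeR adjusted p = 0.0779). DESeq2 (adjusted p = 0.0443) and voom (0.018) put it past the threshold. Its counts were 32 to 107 a library, so counting error is part of its spread. Over the 20 libraries not apart Bbc3 had Pearson r of -0.68 with cardiomyocyte, 0.63 with macrophage, 0.60 with fibroblast and 0.56 with proliferation markers, whose levels in these groups stand with Bax, and their part in its difference was not tested. With swimming the vectors differed by -0.30 ± 0.20 (edgeR adjusted p = 0.424), and swimming gave -0.10 ± 0.19 with the empty and 0.18 ± 0.20 with the miR-21 vector (edgeR adjusted p = 0.791 and 0.636).

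Bid, the BH3-only protein that caspase-8 cleaves to link death receptors to mitochondria, was the scarcest member, at 14 to 115 counts a library. Its highest levels were in the 3 libraries that stood apart: 7.55 and 3.51 CPM in AAV9-Empty controls 2 and 5, and 6.77 in AAV9-OE miR-21 swimming 2. The other 20 libraries held 1.0 to 3.0 CPM, so these 3 did not overlap them. These 3 were picked as extremes of the first principal component of all tested genes. The share of all genes that separate them from the 20 was not computed. The same 3 libraries were above the other 20 in macrophage (1466 to 2339 against 332 to 974 CPM), neutrophil (189 to 958 against 2.95 to 61.6), lymphocyte (20.6 to 60.8 against 2.86 to 19.7) and fibroblast markers (4539 to 6802 against 1052 to 4408), and below them in cardiomyocyte markers. Within those 20, Pearson r with Bid was 0.54 for neutrophil, 0.49 for lymphocyte and 0.45 for macrophage markers. The part of these cells in the Bid level was not tested. The miR-21 vector without swimming gave -0.96 ± 0.35 (edgeR adjusted p = 0.0979), which became -0.58 without AAV9-Empty control 2 and -0.49 without all 3 (adjusted p = 0.273 and 0.262). It became past the threshold when AAV9-OE miR-21 swimming 2, which is in neither group, was left out of the shared model (-0.95, adjusted p = 0.0238). For swimming under the miR-21 vector the value was 0.79 ± 0.36 (edgeR adjusted p = 0.247), and 0.31 without AAV9-OE miR-21 swimming 2 (adjusted p = 0.775). The interaction was 1.46 ± 0.50 (edgeR adjusted p = 0.113), and 0.51 without the 3 libraries (edgeR adjusted p = 0.601). With adipocyte and mesothelial scores in the model these 3 values of Bid were -0.30, 0.39 and 0.21 (edgeR adjusted p = 0.790, 0.603 and 0.905).

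**Figure D4:**
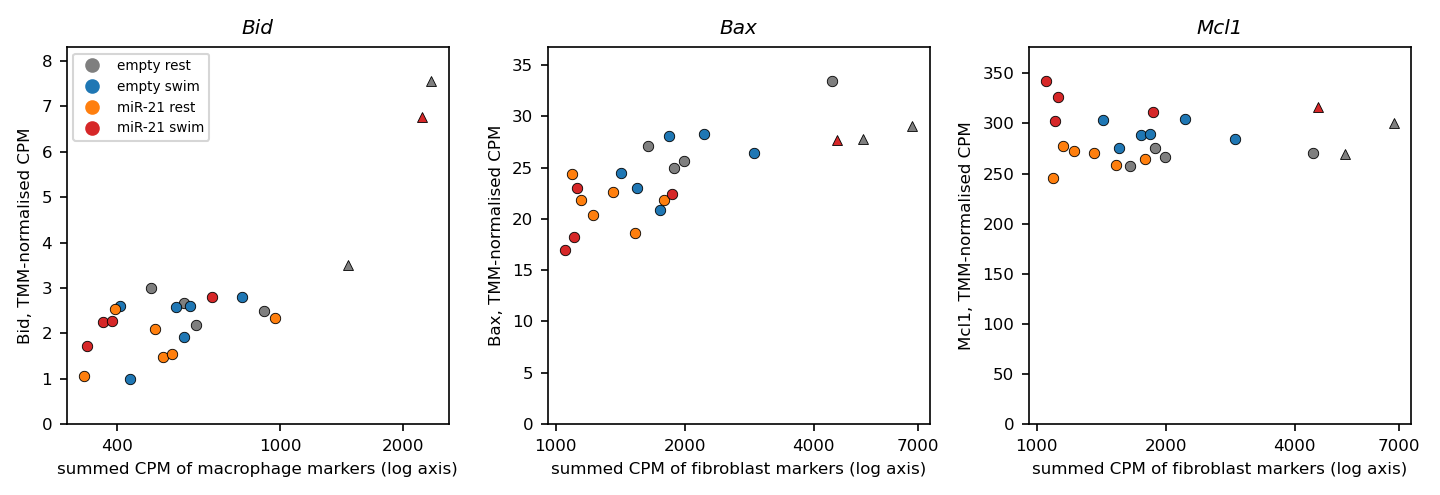
Bid against summed macrophage markers, and Bax and Mcl1 against summed fibroblast markers (TMM-normalised CPM, log horizontal axes), 1 point per library, with triangles for the 3 libraries that stood apart and "rest" for control mice that did not swim. The 3 triangles hold the highest Bid levels (3.51 to 7.55 CPM), while Mcl1 in those 3 (269 to 316 CPM) lies within the range of the other 20.

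Bcl2l11, which encodes BIM, had its highest group mean where Mcl1 did, without passing the test. AAV9-OE miR-21 swimming libraries 1 to 5 held 22.6, 22.1, 28.9, 16.6 and 25.0 CPM. The AAV9-OE miR-21 controls ran from 13.4 over 16.5 to 22.1 and the AAV9-Empty swimming mice from 14.8 over 17.7 to 19.7. Swimming under the miR-21 vector moved the fitted value by 0.41 ± 0.21 (edgeR adjusted p = 0.292) and the miR-21 vector with swimming 0.38 ± 0.21 (adjusted p = 0.326), each in 4 of 5 libraries, replicate 4 being the exception. In the authors' deposited table these had p = 0.0207 and 0.0176, with adjusted p of 0.710 and 0.491. The values in AAV9-Empty controls ran from 9.67 to 29.2 CPM, the widest of the 4 groups. Its 3′ UTR holds the one full seed match among the members, ATAAGCT, and the fitted values with the miR-21 vector were -0.02 ± 0.20 without and 0.38 ± 0.21 with swimming.

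Bad, whose protein is held inactive by AKT phosphorylation, was among the steadiest members. Its group means were 19.8, 19.1, 17.9 and 18.2 CPM in the order above, and the AAV9-Empty swimming group had an SD of 0.80 CPM. Log2 fold changes ran from -0.14 to 0.02 (edgeR adjusted p = 0.281 to 0.904). Bmf, a BH3-only protein tied to the cytoskeleton, had group means of 9.25 to 10.5 CPM and log2 fold changes from -0.18 to 0.11 (edgeR adjusted p = 0.510 to 0.819). Its 3 highest libraries were the 3 that stood apart, at 15.04, 13.2 and 13.1 CPM against 6.61 to 11.4 in the other 20. As for Bid, the share of all genes with this pattern was not computed.

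Counted over the family, edgeR called 0 of 10 members changed by swimming with the empty vector, where 7.46% of all genes were called, and 0 of 10 had an unadjusted p under 0.05 (23.3% of all genes). The miR-21 vector without swimming had 0 of 10 called (2.25% of all genes, 0.881% higher and 1.37% lower). There 3 of 10, Bax, Bbc3 and Bid, had an unadjusted p under 0.05 (28.4% of all genes). Values were below 0 there for 9 of 10 members, 2 of 3 guards, 2 of 2 effectors and 5 of 5 BH3-only genes, with a median over the 10 of -0.19 against -0.00 over all tested genes. DESeq2 and voom each called 2 members, Bax and Bbc3, in that comparison. Of all genes they called 1235 and 1.4e3 there, against 304 in edgeR. With swimming in both groups, 0 of 10 differed between the vectors in edgeR, and 0 of 10 had groups that did not overlap. Over all genes 4.58% were called, 1.87% higher and 2.71% lower, and 3.25% did not overlap. An unadjusted p under 0.05 was reached by 1 of 10, Mcl1, against 19.8% of all genes. DESeq2 called Mcl1 and voom called Mcl1 and Bax, where of all genes they called 970 and 2715, against 618 in edgeR. Swimming with the miR-21 vector had 1 of 10 called, Mcl1, and 2 of 10 unadjusted, Mcl1 and Bid (18.8% of all genes). The median over the 10 was 0.13 there, against 0.03. The interaction had 0 of 10 called by edgeR, DESeq2 or voom (0.541% of all genes in edgeR) and 2 of 10, Mcl1 and Bid, unadjusted (21.5%). Interaction values were above 0 in 9 of 10 members, Bcl2l1 being the exception. Their median was 0.24, against 0.01 over all tested genes, whose 5th and 95th percentiles were -0.47 and 1.44. The values of Bcl2l11, Bax, Bak1 and Bmf fell below 0 in at least 1 alternative. Each comparison shares a group with 2 of the other 3, and the interaction uses all groups, so these counts are not independent of each other.

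**Figure D5:**
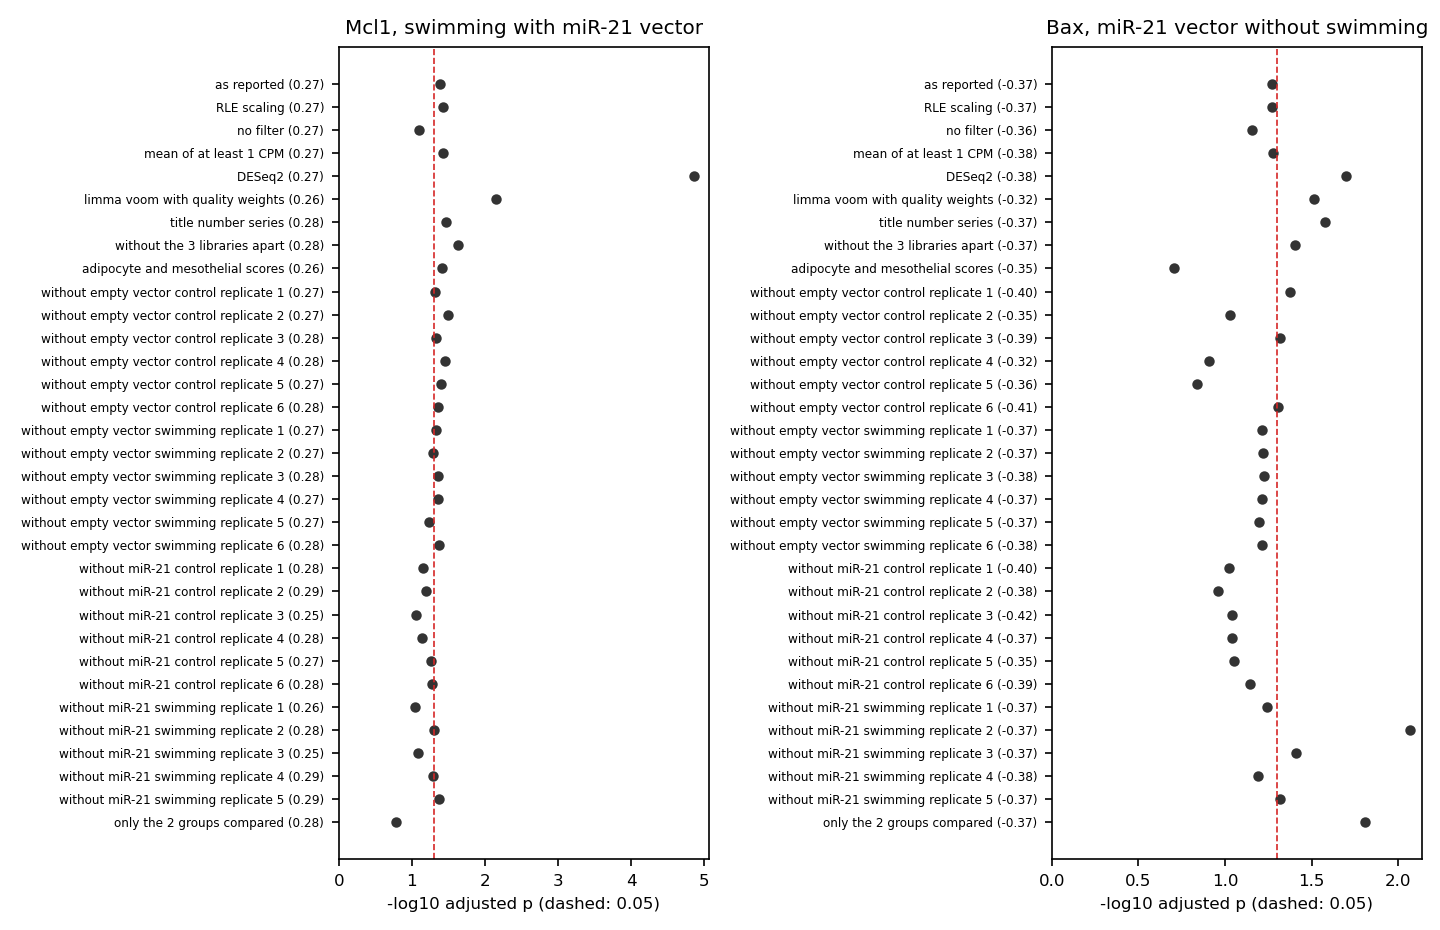
Adjusted p (as -log10, dashed line at 0.05) of Mcl1 for swimming with the miR-21 vector and of Bax for the miR-21 vector without swimming, as reported and under 32 alternatives, with the log2 fold change in parentheses. The log2 fold changes stay within 0.25 to 0.29 and -0.42 to -0.32, while points fall on both sides of the line in each panel.

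The ratio of Bax to Bcl2 is often read as a measure of readiness for death, and it was computed here per library from FPKM, with no test. Its log2 mean was 2.58 ± 0.43 in AAV9-Empty controls, 2.51 ± 0.16 with swimming, 2.45 ± 0.32 in AAV9-OE miR-21 controls and 2.31 ± 0.31 with swimming (SD). All groups overlapped, and the differences between group means were smaller than the SD of the AAV9-Empty controls. Mcl1 over Bax had log2 means of 2.52 ± 0.15, 2.77 ± 0.16, 2.85 ± 0.16 and 3.13 ± 0.31 in the same order, also with no test. This ratio was not planned. It joins the 2 members with the smallest p, so it restates their differences. The groups overlapped in each comparison of swimming or of vectors. AAV9-OE miR-21 swimming replicate 2, one of the libraries apart, was the lowest of its group at 2.74, and replicate 3 the highest at 3.56.

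Of 66 other genes of the pathway in 5 lists (other family members, mitochondrial release factors and caspases, caspase inhibitors, death receptors, upstream regulators), 60 were tested. Bcl2a1c, Bcl2l10, Bcl2l14, Bcl2l15 and Trp73 were too low to test, and Faslg was not analysed here. By list, 12 of 16 other family members, 17 of 17 release factors and caspases, 6 of 6 inhibitors, 11 of 12 death receptor genes and 14 of 15 regulators were tested. Swimming with the empty vector changed 4 of the 60, 1 up and 3 down (4.18% of all genes rose and 3.28% fell). Bnip3, a hypoxia-induced BH3-like gene of mitophagy, fell from 214 ± 33.6 to 146 ± 12.6 CPM (log2 -0.56 ± 0.10, edgeR adjusted p = 0.00254). Dffa, the inhibitor of the caspase-activated DNase, fell from 50.4 ± 8.01 to 34.4 ± 3.83 CPM (-0.55 ± 0.12, edgeR adjusted p = 0.00587). Akt1, a survival kinase, rose from 245 ± 38.8 to 325 ± 31.6 CPM (0.41 ± 0.10, edgeR adjusted p = 0.0205). Bcl2a1d, a guard of blood cells, fell by 2.37 ± 0.71 in log2 (edgeR adjusted p = 0.0449) at mean levels of 1.38 and 0.26 CPM. It has near-identical copies, so its counts are uncertain. Endothelial markers summed to 926 to 1136 CPM in AAV9-Empty controls and 1149 to 1404 with swimming, and proliferation markers to 17.2 to 33.5 and 36.9 to 132. Neither list overlapped between these groups, and their part in the 4 changes was not tested.

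By list, the changed genes are 2 other family members, 1 regulator and 1 from the list of release factors and caspases. The last is Dffa, itself the inhibitor of a DNase. Of the caspase inhibitors 0 of 6 were called, and of the death receptor genes 0 of 11. These 4 calls were not equally steady. All 23 single libraries left out kept Bnip3 and Dffa, and 22 kept Akt1, which was lost without AAV9-Empty control 5 (0.34, adjusted p = 0.0608). With adipocyte and mesothelial scores Akt1 was 0.22 (edgeR adjusted p = 0.180). Bcl2a1d kept its call in 11 of the 23, and without the 3 libraries that stood apart it was -1.39 (adjusted p = 0.171). With the scores it was -0.44 (adjusted p = 0.670) and with the title number series -1.08 (adjusted p = 0.744). The title number series separates these 2 groups completely, so within-series values cannot be had. A term for it, which only the AAV9-OE miR-21 swimming group informs, gave Bnip3 -0.63, Dffa -0.66 and Akt1 0.37 with adjusted p of 0.136, 0.176 and 0.438.

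The miR-21 vector without swimming changed 1 of the 60 (2.25% of all genes). An unadjusted p under 0.05 was reached by 18 of 60 (28.4% of all genes). Tnfrsf1a, the main TNF receptor, fell from 77.8 ± 12.4 to 54.9 ± 5.02 CPM (log2 -0.50 ± 0.13, edgeR adjusted p = 0.049). It kept the call in 6 of 23 single libraries left out and was -0.42 without AAV9-Empty control 2 (adjusted p = 0.0952). It was also lost with adipocyte and mesothelial scores (-0.22, edgeR adjusted p = 0.274), with RLE scaling (adjusted p = 0.0506) and without a filter (adjusted p = 0.0587). Bok, a relative of Bax and Bak1, had -0.70 ± 0.22 (edgeR adjusted p = 0.0682), past the threshold with DESeq2 and voom. In the other comparisons edgeR called 0 of 60. Of all genes it called 4.58% for the miR-21 vector with swimming, 0.17% for swimming with the miR-21 vector and 0.541% for the interaction. For the miR-21 vector with swimming 13 of 60 had an unadjusted p under 0.05 (19.8% of all genes). DESeq2 called 1 of the 60 and voom 21, among 970 and 2715 genes called in all. For swimming with the miR-21 vector it was 8 of 60, with Dffa (-0.52 ± 0.12, edgeR adjusted p = 0.0664) called by both other tools. For the interaction 8 of 60 had an unadjusted p under 0.05 (21.5% of all genes). DESeq2 called 2 of the 60 and voom 0, among 719 and 147 genes called in all. Median log2 fold changes over the 60 were 0.00, -0.06, -0.03, 0.02 and 0.01 in the 5 tests.

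Across the 20 libraries without those that stood apart, which share groups, depth and scaling, the strongest relations among members were Bcl2l11 with Bak1 (Pearson r = -0.73, Spearman -0.69) and Bak1 with Bad (0.64 and 0.47). Over all 23 libraries the first was -0.45. Over the 20, the fibroblast score had Pearson r of 0.67 with Bak1, 0.62 with Bad and -0.64 with Bcl2l11. Without the 2 libraries farthest in that score these were 0.34, 0.34 and -0.43. The part of fibroblast markers in the relations among members was not tested. Mcl1 and Bcl2l11, guard and antagonist, had r = 0.52, and the effectors Bax and Bak1 0.57. Over all 23 libraries and 12809 genes with at least 1 CPM, the genes most like Mcl1 were Ctdsp2 (r = 0.85), Zfp934 (0.84) and Zkscan17 (0.79), which had 0.84, 0.89 and 0.80 over the 20. Those most like Bax were Elovl1 (0.88), Crip1 (0.87) and S100a11 (0.86), which had 0.90, 0.86 and 0.88 over the 20.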

How the data were processed

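Heart RNA was extracted with TRIzol and made into libraries with a TruSeq stranded mRNA kit, per the labels' protocols. The genome build was GRCm39, per the submitters' processing notes, and the aligner and counter, and whether counting used strand, were not given in the sources used here. The authors deposited raw counts and FPKM per gene and library, and 4 comparison tables with log2 values, p-values and adjusted p-values of their own, per the file headers. Counts were used for every test, FPKM for levels between genes, and the tables only where named. Beyond these, 46 per-sample columns that repeat analysed samples were not used, and AAV9-OE miR-21 swimming replicate 6 was not analysed here. No 2 of the 23 libraries were identical.

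Genes were filtered with filterByExpr and scaled by TMM. All 23 libraries entered 1 robust edgeR quasi-likelihood model of 4 groups with Benjamini-Hochberg adjustment, and genes with an adjusted p under 0.05 were called changed. SE is that of the log2 fold change, computed from the F statistic. Libraries in a direction are those beyond the mean of the other group. Log2 CPM for correlations used a prior count of 2. Correlations with marker lists used a score, the mean over the list of log2 CPM centred per gene, while levels of lists are summed CPM. The model was also run on counts simulated without libraries that stand apart. The outcome is not given here, and such counts cannot show how the model handles those libraries. Alternatives were DESeq2, RLE scaling, voom with quality weights (limma), no filter, a filter at a mean of 1 CPM, a term for the title number series, leaving out the 3 libraries apart, adipocyte and mesothelial scores as covariates, 2 groups only and each library left out.

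Named were all 10 members, in each pathway list up to 4 changed genes or else at most 1 as values, and the 3 genes most like each of the 2 members with the smallest p. Members and lists were chosen with earlier results of these data known. The longest 3′ UTR per gene in GENCODE M21 (GRCm38, an earlier build than the counts, used for letters only) was searched for seed matches. R 4.3.3 ran DESeq2 1.42.0, limma 3.58.1 and edgeR 4.0.16. Python 3.11.15 ran matplotlib 3.10.9, pandas 2.3.3 and numpy 2.4.6.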

Additional observations from a re-analysis of the deposited data

Results flagged for a closer look

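Single libraries stood far from the rest of their group for 5 of the 40 pairs of member and group: the gap to the next library exceeded 0.625 of the range with 6 libraries, or 0.71 with 5. Chance gives about 1 in 20. Bak1 was at 58.5 CPM in AAV9-Empty control 4 (next 46.0), at 52.1 in AAV9-OE miR-21 control 4 (next 39.7) and at 54.8 in AAV9-OE miR-21 swimming 2 (next 37.5). Bid was at 7.55 CPM in AAV9-Empty control 2 (next 3.51) and at 6.77 in AAV9-OE miR-21 swimming 2 (next 2.80).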

How the results depend on the processing

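Of 1590 alternative values of the members' log2 fold changes, 1555 kept their side of the threshold, 13 lost a call (all Mcl1 for swimming with the miR-21 vector), 22 gained one, and 0 changed sign while called. In 92, uncalled either way, the sign differed. Counts of changed genes moved most. Swimming with the empty vector (1007 genes) had 1716 with voom, 164 with the title series, 1555 without the 3 libraries apart and 2187 with marker scores. The miR-21 vector without swimming (304) had 150 without a filter, 1235 with DESeq2, 1.4e3 with voom, 911 with the title series, 771 without the 3 libraries, 1 with marker scores and 1622 with 2 groups only. The miR-21 vector with swimming (618) had 970 with DESeq2, 2715 with voom, 2318 without the 3 libraries, 2281 with marker scores and 165 with 2 groups only. Swimming with the miR-21 vector (23) had 0 without a filter, 403 with DESeq2, 314 with voom, 1076 with the title series, 134 without the 3 libraries and 0 with 2 groups only. The interaction (73) had 719 with DESeq2, 147 with voom and 25 with the title series. With 1 library left out these counts ran from 607 to 1922, 17 to 2885, 330 to 1871, 0 to 86 and 18 to 358. Members called for the miR-21 vector without swimming (0) were 2 with DESeq2, 2 with voom, and 1 each with the title series, without the 3 libraries and with 2 groups only. With swimming (0) they were 1 with DESeq2, 2 with voom, and 1 each with the title series, without the 3 libraries and with marker scores. For swimming with the miR-21 vector (1) they were 0 without a filter and 0 with 2 groups only. With 1 library left out, members called ran from 0 to 3, 0 to 1 and 0 to 1 in these 3 comparisons. The cause was not tested. No paired analysis was possible because the numbers in the sample titles are shared by no groups. Depth limits Bid and Bbc3 most, with as few as 14 and 32 counts in a library.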
